A study of Mus musculus with 32 samples.

Results

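Acta2, Tagln, Mylk and Trp63 are genes of the myoepithelial layer of the mammary gland, 3 of them contractile and 1 a regulator of the basal cell state. They were taken as every probe set annotated to only 1 of these genes, which gave 1 probe set for each, or 4 of 12422 probe sets and 4 of 8251 genes on the array. All 4 were followed over the 9 groups and 32 arrays of the series. The rule itself uses gene names and no threshold on measured values, but the 4 genes were picked with earlier results of these data known.

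Myoepithelial cells lie between the milk-secreting luminal cells and the basement membrane and contract in response to oxytocin, which ejects the milk. Their contraction runs as in smooth muscle: calcium and calmodulin activate myosin light chain kinase, the product of Mylk, which phosphorylates the regulatory light chain and lets myosin pull on filaments of smooth muscle alpha-actin, the product of Acta2, to which transgelin, the product of Tagln, binds. Trp63 encodes a transcription factor that maintains the basal cells of stratified and glandular epithelia, the myoepithelium among them. Smooth muscle of vessels also makes Acta2, Tagln and Mylk, and fibroblasts can make Acta2 and Tagln.

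The series measured total RNA from mammary gland and liver of wildtype FVB mice, with 1 array per sample. Mice of the time course ate lab chow, and 4 arrays each cover pregnancy day 12, pregnancy day 17 and days 1, 2 and 9 of lactation. For the diet groups, dams on chow were moved at lactation day 5 to diets with 8% or 40% of energy from soy oil for 5 days, and tissue was taken at lactation day 10. These groups held 3 mammary arrays on 8% fat, 3 on 40% fat and 3 liver arrays on 8% fat, besides 3 mammary arrays titled 16% fat, whose feeding schedule is not stated. Titles set the groups here, since descriptions of the 8% and 16% mammary arrays carry the 40% diet. The labels do not say whether the arrays of a stage came from separate animals, so the p-values measure only the spread between these samples, which may be technical.

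Values are log2 of the deposited probe-set intensity, given as mean ± SD with n = 4 arrays for the chow stages and n = 3 for the diet and liver groups, and changes are differences of these log2 means. Testing was limited to probe sets with at least 1 group mean in the fit of 4.22 or more, the log2 of the overall median, and a change was called at a Benjamini-Hochberg adjusted limma p under 0.05. The arrays had median intensities of 16.1 to 21.5. The scaling of the arrays moved the balance of the calls over all probe sets: 51.0% of calls at lactation day 2 against pregnancy day 17 were higher, but 27.4% with array medians set equal and 86.5% with the medians of 24 ribosomal protein probe sets set equal. Those shares were 45.3%, 32.0% and 67.6% at lactation day 9 against pregnancy day 12, 40.0%, 31.9% and 85.0% at lactation day 1 against pregnancy day 17, and 42.7%, 17.7% and 88.2% at lactation day 2 against day 1. They were 35.3%, 22.3% and 24.6% at lactation day 9 against day 2 (50.4% under quantile normalization), and 57.3%, 92.4% and 12.9% for 8% fat against chow. For pregnancy day 17 against day 12 the share was 40.7%, with 52.1% under quantile normalization and 57.6% with ribosomal protein genes set equal, and for liver it was 49.6%, with 89.0% in the latter. The tissue labels matched their markers: Csn2, a casein gene, averaged between 13.48 and 14.30 in the mammary groups and 2.50 in liver, and Alb, the albumin gene, averaged 14.88 in liver and at most 3.83 in the mammary groups. Defining basal markers could not be read, because the probe sets of Krt5 and Krt14, keratins of the myoepithelium, lay below 4.22 in every group, with group means of 1.80 to 2.17 and 2.21 to 2.65. In bulk tissue, fewer cells of a type and less RNA per cell cannot be told apart. Precision is set by how many arrays each group has.

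RefSeq promoter sequence (GRCm38.p6) was found for 2 of the 4 genes and is shown because serum response factor, a regulator of smooth muscle contractile genes, acts through the CArG box. The 250 bases before the RefSeq start are printed 5′ to 3′ on the strand of the gene. They cover chr19:34255374-34255623 on the minus strand for Acta2 and chr16:34784700-34784949 on the plus strand for Mylk. Capitals mark matches to a CArG box with 1 of its inner letters C or G.
Acta2: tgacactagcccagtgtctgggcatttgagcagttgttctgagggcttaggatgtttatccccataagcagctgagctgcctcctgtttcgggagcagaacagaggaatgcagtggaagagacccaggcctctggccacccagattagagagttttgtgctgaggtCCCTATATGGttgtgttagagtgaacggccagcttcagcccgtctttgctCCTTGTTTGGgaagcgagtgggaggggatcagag
Mylk: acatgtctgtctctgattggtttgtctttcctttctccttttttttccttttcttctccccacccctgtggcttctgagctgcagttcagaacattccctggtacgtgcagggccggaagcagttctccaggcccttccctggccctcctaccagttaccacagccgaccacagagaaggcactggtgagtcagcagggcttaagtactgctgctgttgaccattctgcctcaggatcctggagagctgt
The Acta2 window held this looser box at 2 places, CCCTATATGG at -84 to -75 and CCTTGTTTGG at -34 to -25 from the RefSeq start, and the Mylk window at 0 places. Of 32851 RefSeq windows of this length, 7.24% held at least 1 looser box on either strand and 0.548% held at least 2. The strict CArG box, present in 1.47% of windows, was in neither. CANNTG, the E-box, matched 3 places in Acta2 and 0 in Mylk against 66.2% of windows, and TATAAA matched 0 in both against 12.4%. No CANNTG match overlapped a CArG match. The looser box was searched after the sequences had been seen. Both starts lie inside the annotated gene, so other transcripts begin farther upstream, and a match of letters is a description of the window only.

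Acta2 (probe set 93100_at, gene at chr19:34240336-34255585 in GRCm38.p6) had its highest level at pregnancy day 17 and its lowest mammary level at lactation day 9. Replicates 1 to 4 measured 10.81, 10.46, 10.84 and 10.86 at pregnancy day 12, and 11.11, 11.00, 11.20 and 11.42 at pregnancy day 17. They measured 10.01, 10.36, 10.39 and 10.71 at lactation day 1, 10.13, 10.30, 10.34 and 10.28 at lactation day 2, and 9.03, 9.76, 9.63 and 9.13 at lactation day 9. All pregnancy day 17 arrays lay above all others, and all lactation day 9 arrays lay below every other chow array. The group means were 10.74 ± 0.19, 11.18 ± 0.18, 10.37 ± 0.29, 10.26 ± 0.09 and 9.39 ± 0.36 from pregnancy day 12 to lactation day 9. Acta2 varied over the stages with a limma F adjusted p of 1.69e-07, in a time course where 87.5% of 7189 tested probe sets did so.

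Tagln (probe set 93541_at, gene at chr9:45929628-45936058) was high in both pregnancy groups and lower in all lactation groups. Its arrays read 9.35, 8.65, 8.86 and 9.39 at pregnancy day 12, and 9.13, 9.64, 9.01 and 9.36 at pregnancy day 17. In lactation they read 8.29, 8.43, 8.53 and 8.42 at day 1, 8.47, 8.17, 8.21 and 8.12 at day 2, and 7.20, 7.86, 8.23 and 8.02 at day 9. The lowest pregnancy array, at 8.65, stood above the highest lactation array on chow, at 8.53, while the 3 lactation stages overlapped in part. Means were 9.06 ± 0.36, 9.29 ± 0.28, 8.42 ± 0.10, 8.24 ± 0.16 and 7.83 ± 0.44 in stage order, and the limma F adjusted p was 6.67e-06.

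Mylk (probe set 93482_at, gene at chr16:34745199-35002436) had the largest span of the 4 genes over the chow stages. The pregnancy day 12 arrays read 9.54, 9.42, 8.87 and 9.31, and those of pregnancy day 17 read 8.82, 8.77, 9.18 and 9.38. The lactation arrays read 7.33, 7.73, 7.67 and 7.78 at day 1, 8.21, 7.63, 7.37 and 7.50 at day 2, and 5.78, 7.25, 7.06 and 7.12 at day 9. Pregnancy and lactation arrays did not overlap, the pregnancy days overlapped each other, and lactation day 9 replicate 1 was far below the rest of its group. Means were 9.28 ± 0.29, 9.04 ± 0.29, 7.62 ± 0.20, 7.67 ± 0.37 and 6.80 ± 0.69, and the limma F adjusted p was 2.17e-07. The probe set rests on an expressed sequence tag, and which Mylk transcripts it reads is not given in the sources used here.

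Trp63 (probe set 103810_at, gene at chr16:25683763-25892088) stood above the filter line as a group mean at pregnancy day 12 only. Its arrays read 4.88, 4.99, 5.34 and 4.35 at pregnancy day 12, and 4.33, 4.42, 4.33 and 3.64 at pregnancy day 17. In lactation they read 3.83, 3.93, 3.73 and 3.88 at day 1, 3.71, 3.68, 3.64 and 3.69 at day 2, and 3.86, 3.75, 3.86 and 3.91 at day 9. The pregnancy day 12 arrays were all above the lactation arrays, and pregnancy day 17 replicate 4 lay among the lactation arrays. Means were 4.89 ± 0.41, 4.18 ± 0.36, 3.84 ± 0.08, 3.68 ± 0.03 and 3.85 ± 0.07, and the limma F adjusted p was 1.55e-05. Because its means from pregnancy day 17 on lay below the line, the size of its changes is uncertain. It entered the tests through pregnancy day 12, where it was high, so its falls from that group are left out of the counts of called genes, and with no filter they were -0.71 to pregnancy day 17 (limma adjusted p = 0.00363) and -1.04 to lactation day 9 (limma adjusted p = 1.83e-05).

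**Figure D1:**
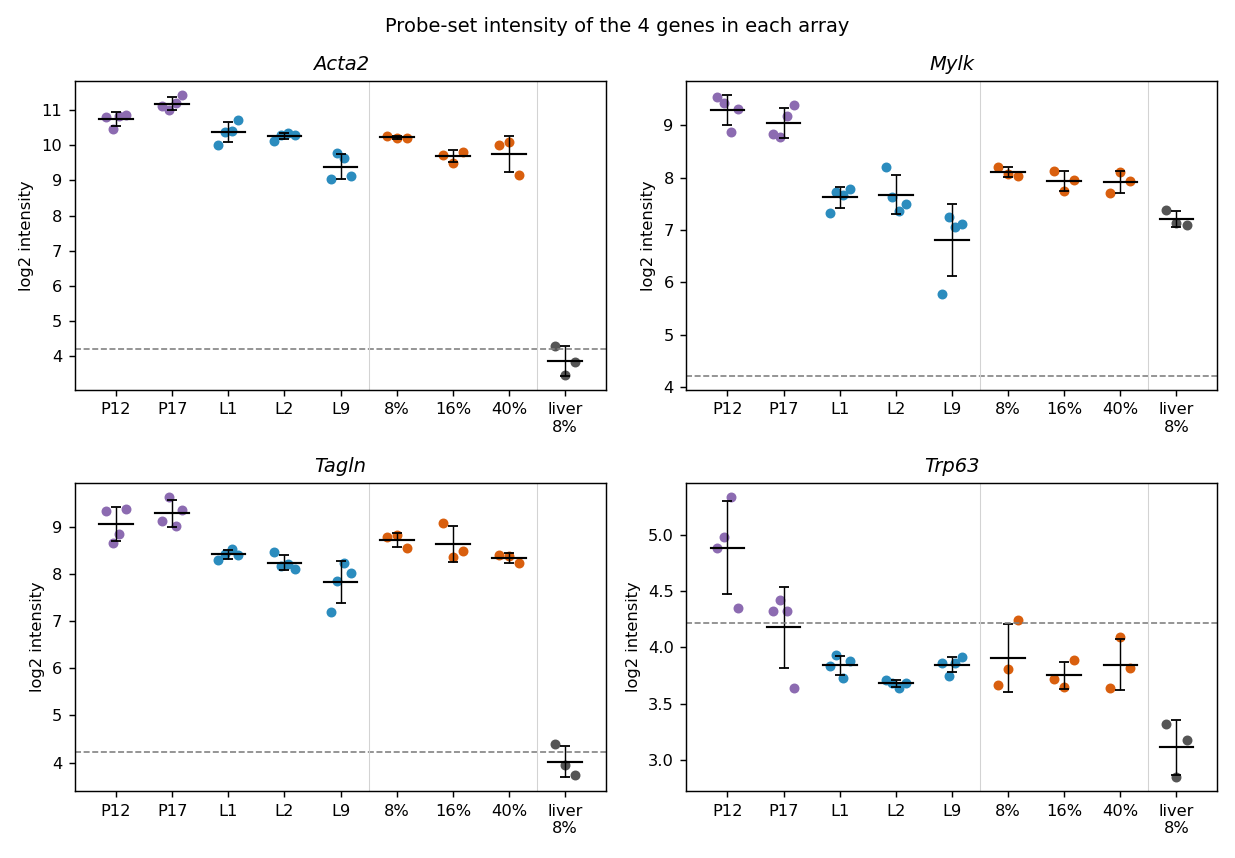
Log2 probe-set intensity (y axes, a different range in each panel) of Acta2, Mylk, Tagln and Trp63 in each of the 32 arrays, by group on the x axes (P, pregnancy day; L, lactation day on chow; 8%, 16% and 40%, mammary gland at lactation day 10; liver on 8% fat). Points are arrays, black bars are group means with SD, and the dashed line is the filter line at 4.22; the pregnancy means of Acta2, Mylk and Tagln exceed all their lactation means on chow, and Trp63 averages above the line at pregnancy day 12 only.

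From pregnancy day 12 to day 17, Acta2 rose and Trp63 fell. Acta2 rose by 0.44 (95% interval 0.10 to 0.78, 1.36-fold, limma adjusted p = 0.0357). Trp63 fell by 0.71 (limma adjusted p = 0.00232) from the group through which it passed the filter. Tagln differed by 0.22 (limma adjusted p = 0.361) and Mylk by -0.25 (limma adjusted p = 0.452), and both did not pass the threshold. Of the 3 contractile genes 1 was called, against 45.1% of all tested probe sets, 18.4% higher and 26.7% lower. Acta2 alone had groups without overlap, higher at day 17, as did 16.4% of tested probe sets. The rise of Acta2 was not called without pregnancy day 12 replicate 2 (limma adjusted p = 0.115), pregnancy day 17 replicate 3 (0.0639) or pregnancy day 17 replicate 4 (0.110).

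Between pregnancy day 17 and lactation day 1, across birth, the 3 contractile genes fell together. Acta2 fell by 0.81 (1.76-fold, limma adjusted p = 0.00110), Tagln fell by 0.87 (1.83-fold, 0.00295) and Mylk fell by 1.41 (2.66-fold, 0.000529). The groups of each of these 3 genes did not overlap. Trp63 differed by -0.34 with a limma adjusted p of 0.172, which became 0.0200 at -0.52 when the low pregnancy day 17 replicate 4 was left out. The 3 called genes were all lower, against 23.3% of probe sets called, 14% lower and 9.32% higher. Groups without overlap, lower at lactation day 1, were found for 13.4% of probe sets.

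From lactation day 1 to day 2 none of the 4 genes was called in limma, against 14.3% of probe sets, 6.11% higher and 8.18% lower; at an unadjusted p under 0.05 the count was also 0. The Trp63 arrays of lactation day 2 lay below those of day 1 without overlap, as did 9.6% of probe sets in this direction. The differences were -0.10 for Acta2 (95% interval -0.45 to 0.24), -0.17 for Tagln (-0.59 to 0.24), 0.05 for Mylk (-0.50 to 0.60) and -0.16 for Trp63 (-0.52 to 0.19). A p above the threshold does not show that levels stayed the same.

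Over secretory activation, from pregnancy day 17 to lactation day 2, all 4 genes fell. Acta2 fell by 0.92 (95% interval of the difference -1.26 to -0.58, limma adjusted p = 0.000188) and Tagln by a difference of -1.04 (-1.45 to -0.63, 0.000318). The largest fall was that of Mylk, a difference of -1.36 (-1.91 to -0.82, limma adjusted p = 0.000378). Trp63 differed by -0.50 (-0.85 to -0.14, limma adjusted p = 0.0205) between 2 groups whose means lie below the filter line. The background was 49.9% of probe sets called, 24.5% lower and 25.5% higher, and the median change of the 4 genes was -0.98 against 0.04 over all probe sets tested. Groups of the 3 contractile genes did not overlap, which held for 21.2% of probe sets in this direction. When ribosomal protein genes were set equal between arrays, the median of all probe sets shifted by 0.44, the contractile genes stayed called at -0.48, -0.60 and -0.92 for Acta2, Tagln and Mylk, and Trp63 moved to -0.06 (limma adjusted p = 0.804). The Trp63 call was also lost without pregnancy day 17 replicate 1 (0.0588), 2 (0.0700) or 3 (0.0532).

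From lactation day 2 to day 9 Acta2 and Mylk fell again. Acta2 fell by 0.87 (95% interval -1.22 to -0.53, limma adjusted p = 0.000584) and Mylk by a difference of -0.87 (-1.42 to -0.32, limma adjusted p = 0.0189). Tagln differed by -0.42 (limma adjusted p = 0.132) and Trp63 by 0.17 (limma adjusted p = 0.518). Thus 2 of 4 genes were lower, against 25% of probe sets called, 16.2% lower and 8.82% higher. The lactation day 9 arrays of Acta2 and Mylk lay below all lactation day 2 arrays, as did 16.7% of probe sets, and those of Trp63 lay above, as did 12.8%. Trp63 averaged below the filter line in both groups. Of the 5233 probe sets not tested because they lay below the line, 94.6% were higher at lactation day 9, at a median of 0.12. The Mylk call was lost without lactation day 9 replicate 1 (-0.53, limma adjusted p = 0.0675), without lactation day 2 replicate 1 (0.0763), and in a fit of these 2 groups alone (0.0779).

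At lactation day 9 against pregnancy day 12 the 3 contractile genes were lower without overlap. Mylk was lower by a difference of -2.48 (95% interval -3.03 to -1.93, 5.58-fold, limma adjusted p = 8.18e-08). Acta2 was lower by -1.35 (2.56-fold, 4.65e-07) and Tagln by -1.24 (2.36-fold, 1.25e-05), both limma adjusted p. Trp63 differed by -1.04 (limma adjusted p = 1.62e-05), also without overlap, from the group through which it passed the filter. This is a contrast where 77.6% of probe sets were called, 42.4% of them lower and 35.2% higher as shares of all tested, and 37.9% were lower without overlap. With ribosomal protein genes set equal, the median of all probe sets shifted by 0.48. The differences of Mylk, Acta2 and Tagln were then -2.01, -0.88 and -0.76, and all 3 stayed called. Trp63, not counted because it passed the filter through pregnancy day 12, differed by -0.57. Beside Trp63, the 5233 probe sets below the filter line had a median difference of 0.47 in this contrast, with 92.5% of them higher at lactation day 9.

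**Figure D2:**
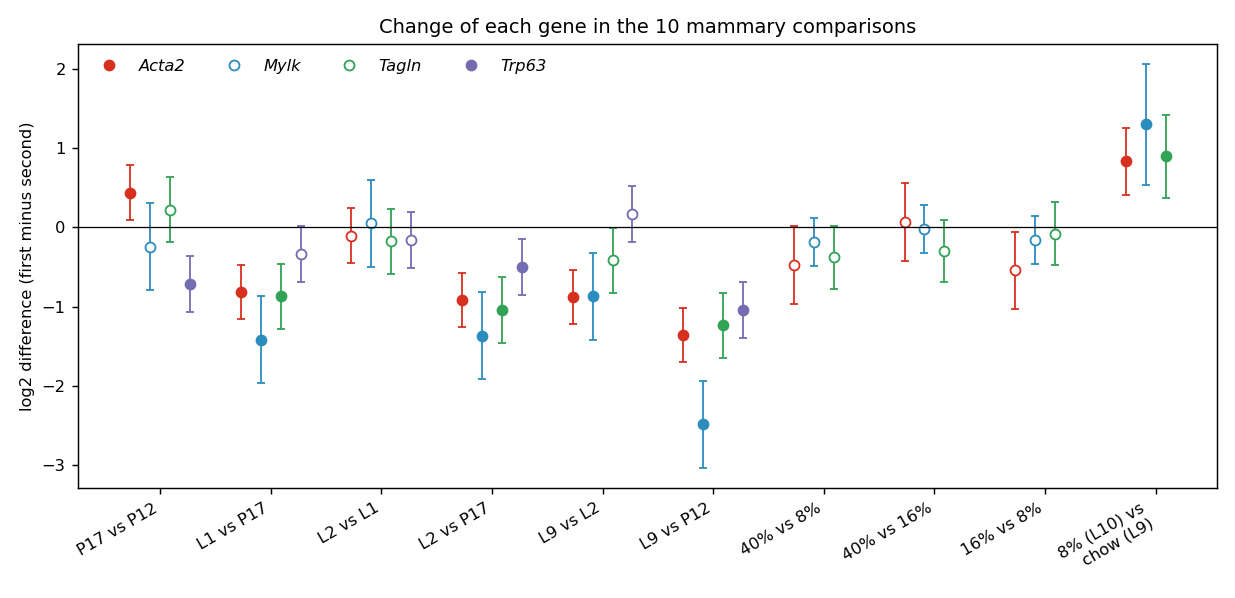
Log2 difference (y axis, first group minus second) of Acta2, Mylk, Tagln and Trp63 in the 10 mammary comparisons on the x axis, with 95% intervals from limma. Filled points have a Benjamini-Hochberg adjusted p under 0.05 and open points do not, and Trp63 is drawn only for the stage comparisons, where it was tested; all filled points lie below 0 between pregnancy and lactation, and the 3 filled points for 8% fat against chow lie above 0.

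The partners of these genes in the contractile apparatus (myosins, calponins, tropomyosins, actinins and adhesion proteins) also had lower levels in lactation. Of 30 such genes, 25 had a probe set and 18 were tested over the stages. From pregnancy day 17 to lactation day 2, 11 of the 18 fell and 1 rose, where 24.5% of all tested probe sets fell and 25.5% rose, with a median of -0.55 against 0.04 over all probe sets; with ribosomal protein genes set equal 6 fell and 3 rose, at a median of -0.11 against 0.51. Cnn3, a calponin, fell by 2.12 (SE 0.16), Actn1, an alpha-actinin that crosslinks actin, fell by 1.46 (SE 0.14), Tpm4, a tropomyosin, fell by 1.22 (SE 0.20) and Csrp1, a LIM protein of smooth muscle, fell by 0.95 (SE 0.17). Myh9, a nonmuscle myosin heavy chain, rose by 0.46 (SE 0.14). The smooth muscle forms Myh11, at -0.28, and Cnn1, at -0.47, did not pass (limma adjusted p = 0.226 and 0.0554), and Myl9, the regulatory light chain that the kinase acts on, fell by 0.48 (limma adjusted p = 0.0138). The fall was not particular to this list: over the same step 11 of 15 luminal epithelial markers fell and 2 rose (median -0.56). Of 20 fibroblast and matrix markers 15 fell and 1 rose (median -0.88). Luminal markers at or above the filter line numbered 15 at pregnancy day 17 and 12 at lactation day 2, and fibroblast markers 19 and 18. These counts of falls may thus include genes that passed only through groups where they were higher. Of 8 vascular smooth muscle and pericyte markers 2 fell and 1 rose (median 0.21), and of 12 endothelial markers 1 fell and 2 rose (median 0.00).

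At lactation day 9 against pregnancy day 12, 16 of the 18 contractile partners were lower and 2 higher, where 42.4% of all tested probe sets were lower and 35.2% higher, with a median of -1.22 against -0.13 over all probe sets. Cnn3 fell by 3.06, Tpm4 by a difference of -3.00, Actn1 by -2.86 and Cnn2, a second calponin, by -2.84. Myh11 fell by 0.74, Cnn1 by a difference of -0.54 and Actg2, the enteric smooth muscle actin, by -0.58, each less than Acta2 at -1.35, a comparison of differences that was not tested. Tpm2, a tropomyosin, rose by 1.13 from a pregnancy mean of 3.19 below the filter line, and Csrp2 rose by 0.63. With ribosomal protein genes set equal the counts were 10 lower and 2 higher, with a median of -0.75 against 0.44 over all probe sets. From pregnancy day 12 to day 17, where Acta2 rose, 7 of the 18 fell and 0 rose at a median of -0.05, led by Cnn2 at -1.59 and Myh9 at -1.0. That median was 0.04 under quantile normalization, with 6 lower and 2 higher, and 0.05 with ribosomal protein genes set equal, with 5 lower and 1 higher.

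Of the 18 contractile partners, 10 fell and 0 rose from pregnancy day 17 to lactation day 1 (median -0.44 against 0.03), with Cnn3 at -1.66 and Actn1 at -0.98; with ribosomal protein genes set equal 6 fell and 2 rose. From lactation day 2 to day 9, 9 fell and 0 rose (median -0.41 against 0.01), with Actn1 at -1.32 and Tpm4 at -1.12, and 6 fell without lactation day 9 replicate 1. From lactation day 1 to day 2 2 fell and 0 rose, at a median of -0.12 against 0.03.

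The signalling genes that couple oxytocin to contraction were called about as often as probe sets in general, in both directions. Of 28 listed genes 13 had a probe set and 7 were tested, and the oxytocin receptor gene Oxtr was not among them. From pregnancy day 17 to lactation day 2, 3 of the 7 rose and 1 fell, where 49.9% of all tested probe sets were called, with a median of -0.15. Rhoa, the small GTPase that restrains myosin phosphatase, fell by 0.68, while Arhgef1, a guanine nucleotide exchange factor, rose by 0.51, Plcb1, a phospholipase C, rose by 0.41 and Gna11, a G protein alpha subunit, rose by 0.32. Rock1, a protein kinase, differed by -0.15 (limma adjusted p = 0.570) and Ppp1cb, the catalytic subunit of myosin phosphatase, by -0.37 (limma adjusted p = 0.356). At lactation day 9 against pregnancy day 12, 3 of 7 rose and 2 fell, against 77.6% of probe sets called, Ppp1cb by a difference of -0.93, Plcb1 by 0.73, Rhoa by -0.70 and Itpr2, an inositol trisphosphate receptor, by 0.65. These directions moved with the scaling: array medians set equal gave 0 higher and 1 lower in the first comparison and 1 higher and 3 lower in the second, and ribosomal protein genes set equal gave 3 and 0, and 4 and 0.

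Among regulators that act with serum response factor, 9 were tested of 14 listed, and Srf and Myocd, the factor and its smooth muscle coactivator, were not among them. Between pregnancy day 17 and lactation day 2, 3 rose and 3 fell, against 49.9% of probe sets called; with ribosomal protein genes set equal 3 rose and 1 fell. Yap1, a coactivator of the Hippo pathway, fell by 1.13 (SE 0.08), Klf4 fell by 1.03 (SE 0.35), Gata6 rose by 0.53 (SE 0.16) and Smad3, a mediator of TGF-beta signals, rose by 0.49 (SE 0.10). Mrtfa, a myocardin-related coactivator, differed by -0.10 (limma adjusted p = 0.640). At lactation day 9 against pregnancy day 12, 3 rose and 4 fell (4 and 4 with ribosomal protein genes set equal, 5 and 4 under quantile normalization), against 77.6% of probe sets called, with Klf4 at -1.66, Tgfb1i1 at -1.44, Yap1 at -1.30 and Gata6 at 1.08. Group means at or above the filter line numbered 7 at pregnancy day 12, 8 at pregnancy day 17 and 9 at lactation days 2 and 9. Genes below the line at pregnancy day 12 thus passed through later groups where they were higher, and the counts of rises may include them.

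The basal cell genes, partners of Trp63, were called in both directions, at shares near or below those over all probe sets. Of 45 listed, 36 had a probe set and 22 were tested. Group means at or above the filter line numbered 19 at pregnancy day 12, 19 at pregnancy day 17 and 20 at lactation day 9. Some of the 22 thus passed only through groups where they were higher, and the counts may include them. From pregnancy day 17 to lactation day 2, 8 fell and 4 rose, where 49.9% of all tested probe sets were called, and the median was 0.00 against 0.04 over all probe sets; with ribosomal protein genes set equal 7 fell and 12 rose. Lamb3, a chain of the laminin that anchors basal cells, fell by 1.61 (SE 0.26), Itgb1, the beta-1 integrin, fell by 1.35 (SE 0.21), Itgb4, the hemidesmosome integrin, fell by 1.12 (SE 0.12) and Sox10, a transcription factor, rose by 1.13 (SE 0.22). At lactation day 9 against pregnancy day 12, 9 fell and 6 rose, where 77.6% of all tested probe sets were called, with a median of -0.08 against -0.13; 11 fell and 2 rose with array medians set equal, and 8 fell and 12 rose with ribosomal protein genes set equal. Lamb3 fell by 4.06, Tcf7l1 by a difference of -1.90, Id4 by -1.86 and Cav1 by -1.78, and Snai2, a factor of the basal state, fell by 1.68. The basal keratin genes Krt15 and Krt17, above the filter line, averaged higher at lactation day 9. Krt15 had 4.92 ± 0.10 at pregnancy day 12 and 5.43 ± 0.08 at lactation day 9, and Krt17 had 5.69 ± 0.02 and 5.96 ± 0.05. Itga6 and Itga3, integrin alpha chains, differed by -0.47 and -0.11 and did not pass (limma adjusted p = 0.103 and 0.422).

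From pregnancy day 12 to day 17, where Trp63 fell, 4 of the 22 basal genes fell and 4 rose, against 45.1% of probe sets called; with ribosomal protein genes set equal 4 fell and 7 rose. Id4, a helix-loop-helix inhibitor, fell by 1.99 and Dll1, a Notch ligand of basal cells, fell by 1.26, and among the risers Itga6 rose by 1.22 and Runx1 by 1.15.

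**Figure D3:**
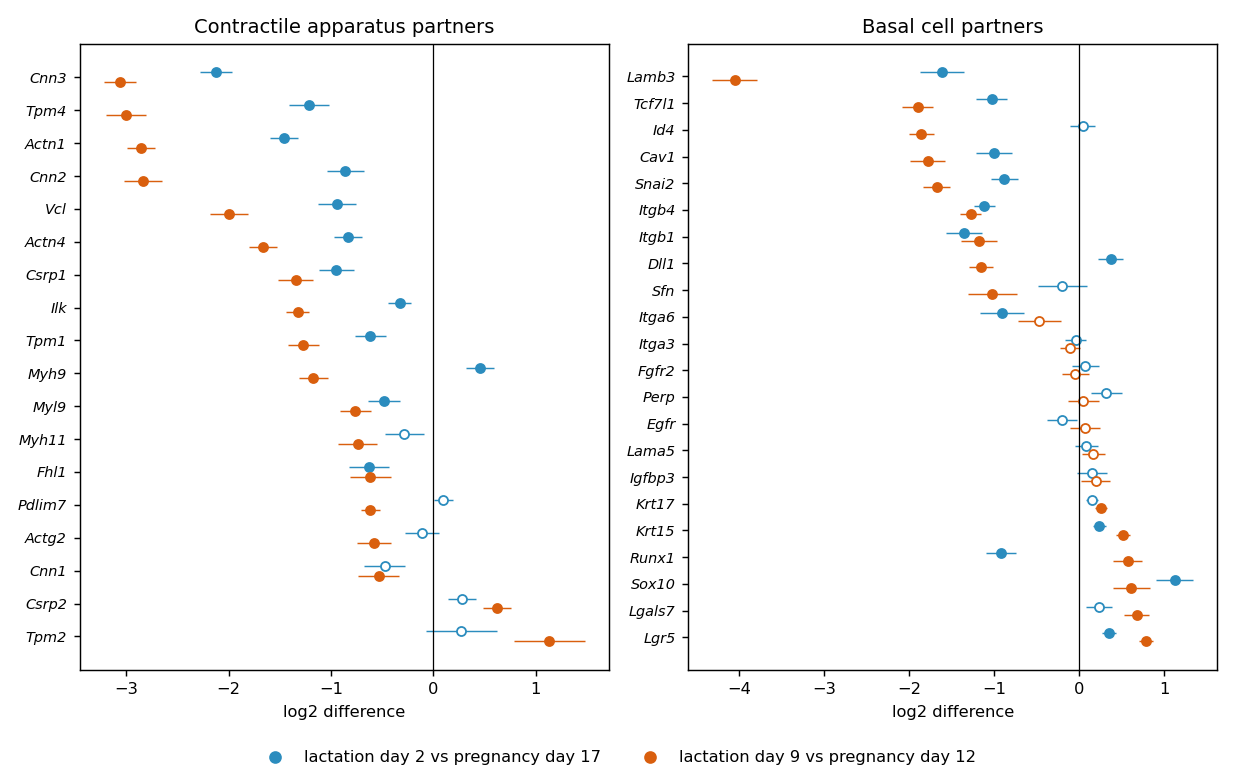
Log2 differences (x axes) of the 18 tested contractile apparatus partners (left) and the 22 tested basal cell partners (right), gene by gene on the y axes, at lactation day 2 against pregnancy day 17 (blue) and lactation day 9 against pregnancy day 12 (orange). Bars are standard errors from limma and filled points have an adjusted p under 0.05; 16 contractile partners lie below 0 as filled orange points, while the basal partners lie on both sides, Lamb3 lowest at -4.06.

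Markers of other cell types moved over the same stages. The summed intensity of 21 fibroblast and matrix markers ran from 19801 to 22938 in the pregnancy day 12 arrays, from 13395 to 13624 at pregnancy day 17, from 6600 to 10872 at lactation day 1, from 5780 to 7938 at lactation day 2, and from 1844 to 5305 at lactation day 9. From pregnancy day 12 to lactation day 9, 19 of the 20 tested fell and 1 rose, at a median of -2.87 against -0.13 over all tested probe sets, of which 42.4% fell and 35.2% rose. Lactation day 9 replicate 1, the lowest of its group for Acta2, Mylk and Tagln, also had the lowest fibroblast sum of its group, 1844. Of 14 adipocyte markers 13 were lower and 0 higher (sums of 13908 to 23915 at pregnancy day 12 and 5028 to 5816 at lactation day 9), and of 10 macrophage markers 8 were lower and 2 higher (2590 to 3853 and 974.2 to 1463).

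Vascular smooth muscle and pericyte markers, the cells that share Acta2, Tagln and Mylk, had sums of 602.4 to 919.7 at pregnancy day 12, 496.7 to 552.4 at pregnancy day 17, 389.4 to 440.9 at lactation day 2 and 407.4 to 467.8 at lactation day 9. Of 12 such markers, 5 lay below the filter line at each of these stages, Des (desmin) in every group of the series with means of 2.32 to 2.79, and among the 8 tested, 3 rose and 3 fell from pregnancy day 12 to lactation day 9. The counts of these lists are to be read against the same 77.6% of probe sets called. Endothelial markers were lower in 8 of 12 cases and higher in 3, with sums of 1144 to 1270 at pregnancy day 12 and 751.0 to 832.7 at lactation day 9. Luminal epithelial markers were lower in 8 of 15 cases and higher in 3, with sums of 12188 to 15242 and 13222 to 13836. Markers at or above the filter line in these 2 groups numbered 15 and 13 (luminal), 20 and 18 (fibroblast), 11 and 10 (endothelial) and 9 and 8 (macrophage). The counts of lower genes may thus include some that passed only where they were higher. Milk secretion markers were higher in 10 of 10 cases, with sums of 100828 to 133489 and 256296 to 287244. A further 3 lists lay mostly below the filter line at pregnancy day 12 and passed it largely through lactation day 9, so no count of calls is given for them. Skeletal muscle markers at or above the line numbered 1 of 16 at pregnancy day 12 and 5 at lactation day 9, with sums of 177.9 to 195.8 and 197.9 to 235.9. Lymphocyte markers numbered 3 and 6 of 10, with sums of 140.1 to 154.4 and 277.3 to 360.5, and hepatocyte markers 2 and 6 of 13, with sums of 1687 to 2975 and 1051 to 1557. Of 5 erythrocyte markers 2 were at or above the line in both groups, and their sums overlapped, at 6206 to 10448 and 599.7 to 8985. The part of these cell types in the levels of the 4 genes was not tested.

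**Figure D4:**
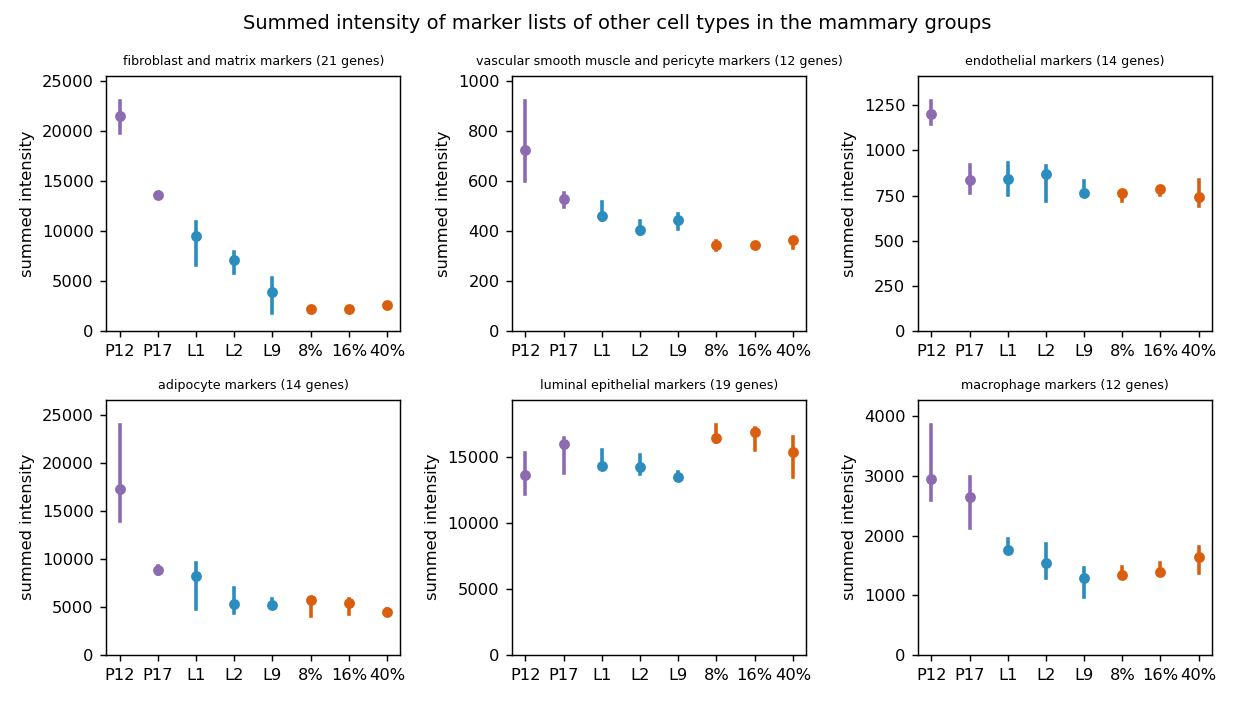
Summed linear intensity (y axes, from 0) of the marker genes of 6 other cell types in the 8 mammary groups (x axes, labels as P for pregnancy day, L for lactation day and the fat content of the diet). Points are group medians and bars run from the lowest to the highest array. The fibroblast sum falls from a median of 21518 at pregnancy day 12 to 3941 at lactation day 9. The luminal sum lies between 12188 and 17382 in all arrays. Gene by gene, 8 of 15 tested luminal markers are lower and 3 higher at lactation day 9 than at pregnancy day 12, against 42.4% and 35.2% of all tested probe sets. The lower ones may include markers that passed the filter only where they were higher.

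Dietary fat moved none of the 3 contractile genes past the threshold. Acta2 read 10.26, 10.21 and 10.19 on 8% fat, 9.73, 9.49 and 9.82 on 16% fat, and 10.01, 10.08 and 9.15 on 40% fat. All 8% arrays lay above all others, and 40% replicate 3 was the lowest. The difference was -0.54 for 16% against 8% fat (95% interval -1.03 to -0.05, limma adjusted p = 0.365), -0.47 for 40% against 8% fat (-0.96 to 0.01, 0.604) and 0.07 for 40% against 16% fat (-0.42 to 0.55, 0.908). The share of probe sets called was 0% of 6483 for 16% against 8% fat, 0.0925% for 40% against 8% fat (0.0463% in each direction) and 0.123% for 40% against 16% fat (0.0771% higher and 0.0463% lower). At an unadjusted p under 0.05, 800 probe sets passed for 16% against 8% fat. Among the 3 genes, Acta2 for 16% against 8% fat was the only value with an unadjusted limma p under 0.05 (0.0331). Acta2 was lower on 16% than on 8% fat without overlap, as were 7.3% of probe sets.

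Tagln read 8.78, 8.84 and 8.55 on 8% fat, 9.08, 8.35 and 8.49 on 16% fat, and 8.41, 8.38 and 8.23 on 40% fat. Its 40% arrays lay below its 8% arrays and overlapped with 16%, and the difference from 8% was -0.38 (-0.78 to 0.02, limma adjusted p = 0.612). Groups without overlap, lower on 40% than on 8% fat, were found for Acta2 and Tagln and for 5.98% of probe sets. Mylk read 8.21, 8.07 and 8.02 on 8% fat, 8.13, 7.74 and 7.95 on 16% fat, and 7.70, 8.11 and 7.94 on 40% fat, and its groups overlapped in all 3 comparisons, with differences of -0.16 for 16% against 8% fat, -0.18 for 40% against 8% fat and -0.02 for 40% against 16% fat. The interval of the 40% to 8% difference for Acta2 reached -0.96, past its difference at birth of -0.81, while those for Tagln and Mylk ended at -0.78 and -0.48, short of theirs of -0.87 and -1.41. Trp63 averaged 3.90, 3.75 and 3.85 on 8%, 16% and 40% fat, below the filter line, and was not tested. Of the contractile partners 16 and of the basal partners 20 were tested in these arrays, and 0 of either were called by limma in any diet comparison. At an unadjusted p under 0.05 the contractile counts were 2, 0 and 2 and the basal counts 2, 3 and 7, for 40% against 8%, 40% against 16% and 16% against 8% fat.

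Glands on 8% fat at lactation day 10 had higher Acta2, Mylk and Tagln than glands on chow at lactation day 9, a contrast in which diet and day of lactation cannot be told apart. Acta2 was higher by 0.83 (95% interval 0.40 to 1.26, 1.78-fold, limma adjusted p = 0.0291), Tagln by 0.90 (0.37 to 1.42, 1.86-fold, 0.0411) and Mylk by 1.30 (0.54 to 2.06, 2.46-fold, 0.0414). All 3 were without overlap, as were 15.2% of probe sets in this direction, and the called background was 15.3% of 6735, 8.76% higher and 6.52% lower. The 3 calls were lost without lactation day 9 replicate 4 and without any single 8% array, with limma adjusted p of 0.0688 to 0.128, and that of Mylk also without lactation day 9 replicate 3 (0.0682). Under quantile normalization Mylk (0.0739) and Tagln (0.0825) were not called, while Acta2 was (limma adjusted p = 0.0399). Without the low lactation day 9 replicate 1 all 3 calls held, with Mylk at 0.95. Trp63, at 3.90 ± 0.30 and 3.85 ± 0.07, was not tested.

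Of the 18 contractile partners 3 were higher and 1 lower in this contrast, against 15.3% of all probe sets called, at a median of 0.14 against -0.04. Actn1 was higher by 1.23 (SE 0.17), Tpm1 by 0.67 and Cnn3 by 0.45, and Cnn2 was lower, at -0.38. Of 21 basal partners limma called 0, with 6 at an unadjusted p under 0.05; 6 were higher with array medians set equal and 5 lower with ribosomal protein genes set equal. Fibroblast sums on 8% fat, 2024 to 2443 with a median of 2202, lay below 3 of the 4 chow arrays (3518 to 5305) and above lactation day 9 replicate 1 (1844), with a chow median of 3941. Of 18 fibroblast markers tested limma called 0, with 5 at an unadjusted p under 0.05 and a median difference of -0.35. Vascular smooth muscle sums were lower on 8% fat, 325.8 to 362.6 against 407.4 to 467.8, and luminal sums higher, 16134 to 17382 against 13222 to 13836. The part of these cells in the contrast was not tested. With ribosomal protein genes set equal, which shifted the median of all probe sets by -0.20, the contractile partners had 2 higher and 3 lower, at a median of -0.06, while Acta2, Tagln and Mylk stayed higher by 0.63, 0.70 and 1.10, Tagln then with a limma adjusted p of 0.0505.

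Liver gave the level of the 4 probe sets in a tissue without mammary myoepithelium. On 8% fat the liver arrays read 4.31, 3.48 and 3.83 for Acta2, 4.39, 3.95 and 3.73 for Tagln, 7.38, 7.14 and 7.09 for Mylk, and 3.32, 2.84 and 3.18 for Trp63. For all 4 genes every liver array lay below every mammary array on 8% fat, as it did for 42.3% of tested probe sets. Acta2 was lower in liver by a difference of -6.35 (81.3-fold, limma adjusted p = 4.00e-08) and Tagln by -4.70 (26.0-fold, limma adjusted p = 1.31e-07), although both liver means, 3.87 and 4.02, lay below the filter line, so that these values do not set the size. Mylk was lower by a difference of only -0.90 (1.86-fold, limma adjusted p = 0.000163), and its liver mean of 7.20 ± 0.16 was above the mammary mean at lactation day 9, with overlapping arrays. In this fit Acta2 and Tagln passed the filter only through the mammary gland, where they were high. For that reason no count of called genes is given. Of all 6897 probe sets tested 80% were called, 40.3% lower and 39.7% higher. Trp63, below the line in both tissues, was not tested. The arrays of both tissues may come from the same dams, which the labels do not match.

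The direction for Mylk in liver depended on scaling: with ribosomal protein genes set equal, which shifted the median of all probe sets by 1.03, Mylk was 0.14 higher in liver (limma adjusted p = 0.341), while Acta2 and Tagln stayed lower at -5.31 and -3.67. Of 16 contractile partners tested, 7 were lower and 4 higher in liver, and of all probe sets 40.3% were lower and 39.7% higher. The smooth muscle genes Myh11 (-5.43), Myl9 (-3.67), Cnn1 (-3.10) and Csrp1 (-2.42) were lower, and Cnn3 (2.93) and Actn1 (1.16) higher. Of 20 basal partners 11 were lower and 6 higher, with Sox10 at -6.84, Cav1 at -3.74, Itga6 at -3.71 and Egfr, the epidermal growth factor receptor, at 4.09. Contractile partners at or above the filter line numbered 16 in mammary gland and 13 in liver, and basal partners 19 and 13. Some genes thus passed only through the mammary gland, among them Myh11, Cnn1 and Itga6, with liver means of 3.36, 4.02 and 3.29. The counts of lower genes may include them. With ribosomal protein genes set equal, 17 genes of either list passed the filter, and the splits were 6 lower and 11 higher, and 5 lower and 10 higher.

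The order of the group means differed among the contractile genes in the place of the pregnancy and diet groups. Acta2 ran from pregnancy day 17 (11.18) over pregnancy day 12 (10.74), lactation day 1 (10.37), lactation day 2 (10.26), 8% fat (10.22), 40% fat (9.74) and 16% fat (9.68) to lactation day 9 (9.39) and liver. Neighbours in this order overlapped, except pregnancy days 17 and 12, the 8% and 40% diets, and lactation day 9 and liver. Mylk ran from pregnancy day 12 (9.28) and day 17 (9.04) over 8% (8.10), 16% (7.94) and 40% fat (7.92) and lactation days 2 (7.67) and 1 (7.62) to day 9 (6.80), with liver (7.20) between the last 2. Only pregnancy day 17 and 8% fat were neighbours without overlap. Tagln ran from pregnancy day 17 (9.29) and day 12 (9.06) over 8% (8.72) and 16% fat (8.64), lactation day 1 (8.42), 40% fat (8.34) and lactation day 2 (8.24) to day 9 (7.83), with every pair of mammary neighbours overlapping. In Trp63 all mammary groups after pregnancy day 12 (4.89) and day 17 (4.18) lay between 3.90 and 3.68 and overlapped with their neighbours.

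Across the 29 mammary arrays, which share the pregnancy to lactation difference, the contractile genes followed each other more closely than Trp63. Pearson r was 0.88 for Mylk and Tagln (Spearman coefficient 0.88), 0.77 for Acta2 and Mylk (0.68) and 0.76 for Acta2 and Tagln (0.70), and 0.43 to 0.61 for pairs with Trp63. After each group's mean was taken off, r was 0.57 for Mylk and Tagln, 0.36 for Acta2 with either, and -0.28 to -0.16 for pairs with Trp63. Without lactation day 9 replicate 1 these were 0.38, 0.23 and 0.26. These are descriptions over arrays that share their groups.

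The genes whose pattern was most like each of the 4 were ranked by Pearson r over the 29 mammary arrays among 5509 genes. For Acta2 they were Sugt1, Atox1, Trappc1, Timm17a and Actn1 (r of 0.92 to 0.91), and Actn1 was the contractile partner among them. Those of Mylk were Atp6v1b2, Smad1, Norad, Tpm1 and Rpl13a (0.89), with Tpm1 from the contractile list, and those of Tagln were Atp6v0e, Atp6v1b2, Lcp1, Hint2 and Cyb5r4 (0.91 to 0.85). Trp63 had Limk2, a kinase of the actin-severing protein cofilin, C1qtnf12, Cmbl, Col18a1 and Maoa (0.91 to 0.88). Over the 20 chow arrays 1, 0, 2 and 5 of the 5 genes stayed among the top 5 of Acta2, Mylk, Tagln and Trp63, and by the Spearman coefficient 1, 2, 3 and 0 did. Over the chow arrays the gene most like Acta2 was Csrp1 (r of 0.97) and that most like Mylk was Vcl (0.95), both of the contractile list. Those of Tagln and Trp63 were Atp6v0e and Limk2 (0.94), outside that list. By the Spearman coefficient Cnn3 was in the top 5 of Acta2 and Tpm1 in that of Mylk. The contractile list has 25 of the 8251 genes on the array. Limk2 averaged 6.25 ± 0.30 at pregnancy day 12 and 5.45 ± 0.19 at pregnancy day 17, and 5.04 to 5.29 in the chow lactation groups.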

How the data were processed

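RNA of 29 mammary and 3 liver samples was read on 1 array each. The authors deposited 1 table of probe-set intensity on a linear scale (12488 probe sets, 399616 values from 0.684 to 58520.1), made with GCRMA per the submitters' processing notes, which corrects the background by probe sequence, normalizes arrays to a common distribution and combines probes. For its version and settings: not given in the sources used here. The deposited array medians differ, and 208 values under 1 were set to 1 before log2.

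Probe sets were named from the platform annotation: 66 controls were left out, 10833 had 1 gene, 396 several and 1193 none, and Entrez identifiers of 10817 were found in RefSeq (GRCm38.p6), with 0 symbols changed. Members and gene lists were chosen with earlier results of these data known. The 16 lists hold 292 entries, 57 without a probe set.

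limma 3.58.1 in R 4.3.3 (lmFit and eBayes, two-sided, Benjamini-Hochberg) was fitted to the 5 chow stages together, to the 3 mammary diets, to 8% fat with lactation day 9, and to liver with mammary gland on 8% fat. A probe set needed 1 group mean in the fit at or above 18.6, the overall median intensity (4.22 as log2). Named from each list were up to 4 called genes with the largest change at lactation day 2 against pregnancy day 17, lactation day 9 against pregnancy day 12 and liver against mammary gland, up to 2 in other comparisons, and up to 2 uncalled genes. Genes beyond that count (Myh9, Tpm2, Csrp2, Myl9, Actg2, Myh11 and Cnn1 at lactation day 9, Snai2, Itga6 and Runx1 at pregnancy day 17, Csrp1 and Actn1 in liver, and Tpm1, Cnn3 and Cnn2 on 8% fat) were chosen after their values were seen. Krt15 and Krt17 at lactation day 9 were also chosen in that way. Replicate numbers did not pair the arrays: same-numbered chow arrays had a median correlation of residuals of 0.00541, and 9 of 40 such pairs exceeded 0.1. The scripts were tested on simulated data. Alternatives were other scalings, filters, a larger offset, moderation with trend, a replicate block, fits of the compared groups alone and leaving out each array. The number of arrays limits the precision.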

Additional observations from a re-analysis of the deposited data

Results flagged for a closer look

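In 3 of the 20 groups of 4 arrays checked for the 4 genes, 1 array stood far from the others by Dixon's ratio of gap to range, which chance gives in about 1 in 20 groups. Acta2 at pregnancy day 12 was 10.46 in replicate 2, where the others lay between 10.81 and 10.86. Mylk at lactation day 9 was 5.78 in replicate 1, where the others lay between 7.06 and 7.25. Trp63 at pregnancy day 17 was 3.64 in replicate 4, where the others lay between 4.33 and 4.42.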

How the results depend on the processing

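Of 39 results for single genes, 31 kept their side of the threshold under every alternative run. Of 935 alternative values 904 did, 29 lost a call and 1 gained one. A called value reversed in 1 case, Mylk in liver against mammary gland, to 0.14 with ribosomal protein medians set equal. Changes of sign between uncalled values are counted as kept. An example is Acta2 at lactation day 2 against day 1, at -0.10 as reported and 0.09 with those medians set equal. The cause of these changes was not tested. The number of the 4 genes called, Trp63 included, was 1 in place of 2 for pregnancy day 17 against day 12 with a filter at the 75th percentile and for lactation day 9 against day 2 in a fit of these groups alone. In the first case Trp63, with a highest mean of 4.89, was below the stricter line of 6.12 and was not tested, while Acta2 stayed called. For 8% fat against chow the number was 1 in place of 3 under quantile normalization and 0 with the replicate number as a block. Leaving out single arrays gave 1 to 2, 1 to 2 and 0 to 3 in these comparisons. The block equals leaving out lactation day 9 replicate 4, the number without a partner, in its differences; it changed the call of no gene in the other comparisons, and 6 of 20 chow arrays correlated best with their own number. Over all probe sets the number called moved by more than 1.5 times in these cases. With no filter it was 6873, 7676, 10370 and 11102 for pregnancy day 17 against day 12, lactation day 2 against pregnancy day 17, lactation day 9 against pregnancy day 12 and any stage, against 3245, 3589, 5577 and 6293 as reported, and with the 75th percentile filter 1890, 2107, 3085 and 3538, because more or fewer probe sets were tested. For liver it was 10292 and 3368 against 5518. With ribosomal protein medians set equal it was 3592 against 1674 at birth and 2775 against 1027 for lactation day 2 against day 1, where leaving out single arrays gave 523 to 1332. For 8% fat against chow the 1029 calls became 5128 with no filter, 626 with the stricter filter, 559 under quantile normalization, 2889 with ribosomal medians, 60 with the block and 180 to 2267 without single arrays. The 6 calls for 40% against 8% fat became 1 to 4 without single arrays and 1 or 2 with array medians, the block or the compared groups alone, and the 8 calls for 40% against 16% fat ranged from 1 to 28. With 3 or 4 arrays a group, the standard errors of the differences ran from 0.11 to 0.33.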

Other observations

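The close relatives of these genes, which other cells of the gland also make, moved in both directions. Of 8 paralogs of the actin, transgelin and myosin kinase genes, 6 had a probe set and 5 were tested. Actb, the cytoplasmic beta-actin often used as a reference gene, averaged 8.33 ± 0.63 (SD, n = 4) at pregnancy day 12 and 10.08 ± 0.66 at pregnancy day 17, a rise of 1.75 (limma adjusted p = 0.000651). Its arrays ran from 7.82 to 9.23 at day 12 and from 9.23 to 10.61 at day 17, so the groups touched. Tagln2, a transgelin outside smooth muscle, averaged 7.94 ± 0.29 at pregnancy day 12, 6.65 ± 0.29 at pregnancy day 17 and 5.59 ± 0.06 at lactation day 9, and its difference over that span was -2.35 (limma adjusted p = 1.72e-10). Actg1, the cytoplasmic gamma-actin, fell by 1.01 over the same span, where 2 of the 5 paralogs fell, against 42.4% of all tested probe sets. Tagln3 was 0.63 higher, but it passed the filter line only through lactation days 2 and 9, where it was higher. For that reason no count of rises is given. In liver 3 of 4 tested were lower and 1 higher, Actg1 at -1.97, Actc1 at -1.64, Actb at -0.76 and Tagln2 at 0.47.

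Whether pairs of the 4 genes changed unequally was tested on the difference of their log2 values in each array, with a two-sided exact permutation test over the arrays of each pair of stages. Over 36 such tests the smallest exact p was 0.0286, the lowest that 4 against 4 arrays allow, and its Benjamini-Hochberg value was 0.103, so none passed. At that lowest p no pair could have passed on its own over 36 tests, so the outcome does not show equal change. The 10 values at that exact p included Mylk against Acta2 and against Tagln from pregnancy day 12 to lactation day 9. There Mylk fell more than Acta2 (-2.48 against -1.35), with Acta2 minus Mylk at 1.13, and Mylk minus Tagln was -1.24.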
